A study of Arabidopsis thaliana with 9 samples.

Results

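The genes described here are the core of the gibberellin pathway in Arabidopsis: the 5 DELLA repressor genes GAI, RGA1 (also called RGA), RGL1, RGL2 and RGL3, the 3 receptor genes GID1A, GID1B and GID1C, and the synthesis genes GA3OX1 and GA20OX1. They were picked by name and locus identifier, with no rule on their values but with earlier results of these data known. All 10 were found among the 33201 rows of the table. Gibberellins are diterpenoid growth hormones. A GID1 receptor that has bound gibberellin takes hold of a DELLA protein, which is then marked by an F-box protein such as SLY1 and degraded, so the growth that DELLA proteins restrain can go on. In roots the hormone promotes cell division in the meristem and elongation above it, and the endodermis is known as a main site of its action. The last synthesis steps are made by GA20OX and GA3OX oxidases and the hormone is removed by GA2OX oxidases. In Arabidopsis, low gibberellin or active DELLA is known to raise GA20OX, GA3OX1 and GID1 transcripts, a negative feedback.

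Messenger RNA was measured in roots of an XVE:PAN transgenic line in the Col-0 ecotype. In this line an estradiol-responsive activator switches on PERIANTHIA (PAN), a bZIP transcription factor of the TGA class. The 3 groups were plants kept 0, 6 or 24 h on β-estradiol at 10 uM, in 1X MS medium that also held sucrose at 1%, with 3 biological replicates each and 5 days of growth in all. Every group carried the transgene, and no mock-treated plants and no line without it are analysed here, so effects of PAN, of estradiol and of the transfer itself cannot be told apart. The labels describe roots cut near the tip in the extraction protocol but whole root as the source. The promoter of the activator and whether the line is 1 clone are not given in the sources used here.

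The deposited table holds 1 pooled FPKM value (a read count scaled to transcript length and sequencing depth) per gene and time, so no spread between replicates can be printed and the read depth is unknown. The only test result available is the q-value in the authors' deposited table, an adjusted p-value. It does not measure the spread between replicates. A gene was called when its q-value was below 0.05 and its mean over the 3 times was at least 1 FPKM, which 17841 rows and 9 of the 10 genes reached. GA20OX1 had a mean of 0.619 FPKM and was left out of the counts. Changes are differences of log2(FPKM + 1), a scale that understates the change of low genes.

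PAN itself had 1.03, 688 and 385 FPKM at 0, 6 and 24 h. The root identity of the tissue was checked with marker genes. Casparian strip and other endodermis markers summed to between 1235 and 1743 FPKM, and the shoot meristem gene STM stayed below 0.1 FPKM. The leaf gene RBCS1A had 2.99, 1.66 and 12.8 FPKM at 0, 6 and 24 h. It was called higher at 24 h versus 0 h and versus 6 h, each at q = 0.000358 in the authors' deposited table. The other leaf gene examined, CAB2, had 0.111, 0.0675 and 0.316 FPKM and did not pass the filter. Marker levels shifted by 24 h versus 0 h, where 23.8% of all tested genes were called lower and 23.8% higher. Markers said here to have fallen or risen were called. All 8 root hair markers fell, with a summed level of 1263 FPKM at 24 h against 2272 FPKM at 0 h. All 3 root cap markers fell, with 37.6 FPKM at 24 h against 94.3 FPKM at 0 h, and 4 of 6 endodermis markers fell. The remaining endodermis markers were not called. MYB36 had 52.6 FPKM at 24 h against 55.1 FPKM at 0 h, and SCR had 25.3 against 19.8 FPKM. All 6 markers of dividing cells rose, with 111 FPKM at 24 h against 54.2 FPKM at 0 h. In bulk roots, fewer cells of a type and less RNA per cell cannot be told apart, and the part of these shifts in the results below was not tested.

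After 24 h, 6 of the 9 genes passing the filter were higher than at 0 h and none was lower, as judged from the authors' deposited table. Those higher were the DELLA genes RGL3, GAI and RGA1, the receptor genes GID1A and GID1C, and GA3OX1. Of all tested genes, 47.7% were called in that comparison and 23.8% were called higher, against 66.7% of the 9. After 6 h none of the 9 was called, where 11.3% of all tested genes were. The p-values recovered from the q-values of that comparison lay below 0.05 before adjustment for 2 of the 9, RGL2 and GID1A. The share of all genes below that unadjusted limit is not given here, so nothing is read from the count. For 24 h versus 6 h, RGL3, GAI, RGA1 and GA3OX1 were called, all higher, against 39.4% called and 19.6% called higher among all genes. The median change of the 9 genes was 0.12, 0.59 and 0.46 in the comparisons 6 h versus 0 h, 24 h versus 0 h and 24 h versus 6 h. The same medians over all 17841 genes were 0.019, 0.046 and 0.031. The comparisons at 6 h and at 24 h share the 0 h libraries.

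**Figure D1:**
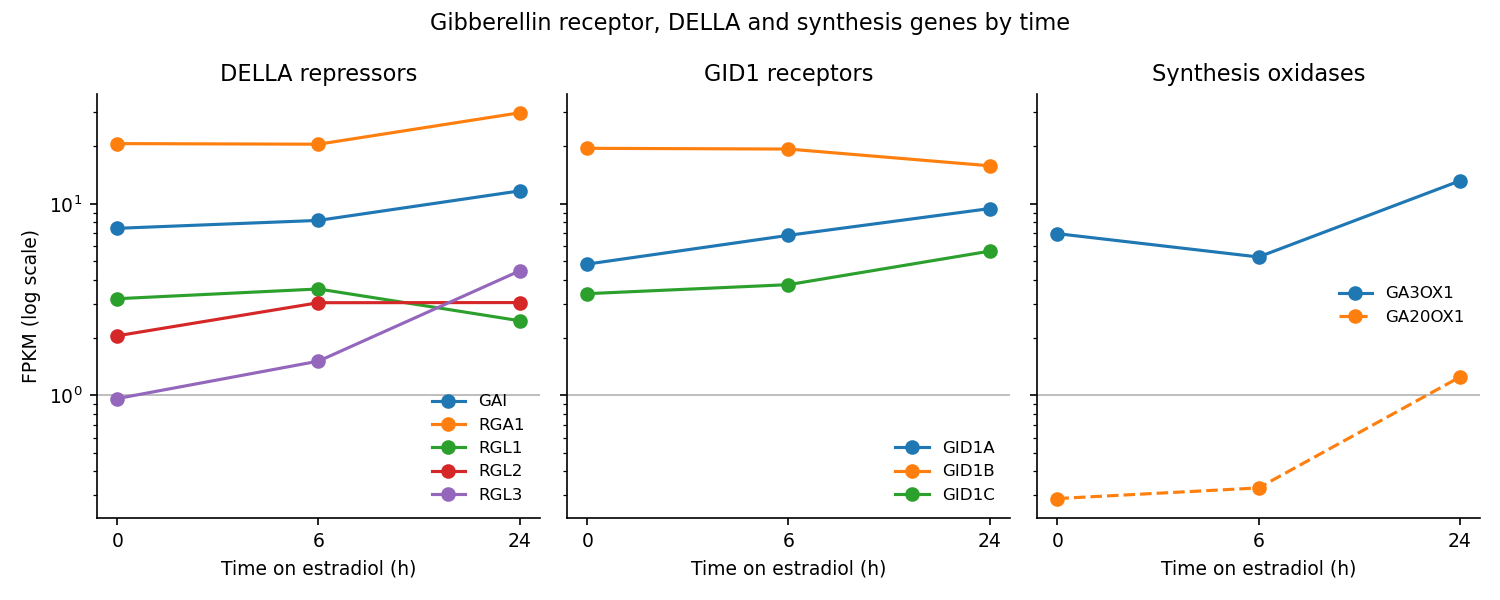
FPKM on a log axis (vertical) against time on estradiol in h (horizontal, evenly spaced) for the 5 DELLA genes, the 3 receptor genes and the 2 synthesis genes; each point is the authors' 1 value over 3 replicates, the grey line marks 1 FPKM and the dashed line is GA20OX1, which did not reach the filter. RGL3 is the lowest DELLA gene at 0 h and lies above RGL2 and RGL1 at 24 h.

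The DELLA genes encode GRAS-type nuclear repressors, and each of the 5 is annotated as a single exon without introns (coordinates are of RefSeq TAIR10.1). RGA1 (AT2G01570, chr2:255247-257568) was the most abundant at every time, with 20.6, 20.5 and 29.9 FPKM at 0, 6 and 24 h. The 24 h value was the highest, and those at 0 and 6 h were close together. RGA1 and GAI are known as the main DELLA repressors of stem and root growth. The change of RGA1 at 24 h versus 0 h was 0.51 (q = 0.0149 in the authors' deposited table). GAI (AT1G14920, chr1:5148982-5151415) had 7.44, 8.19 and 11.7 FPKM at 0, 6 and 24 h and changed by 0.59 at 24 h versus 0 h, where the authors' deposited table gives q = 0.0125. At 24 h both of these abundant DELLA transcripts were 1.45- to 1.57-fold their 0 h level. For 24 h versus 6 h the authors' deposited table gives q = 0.0129 for RGA1 and q = 0.0495 for GAI, which is just inside the limit of 0.05.

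RGL3 (AT5G17490, chr5:5763989-5766246) had the largest change of the 9 genes at 24 h versus 0 h. In Arabidopsis RGL3 is known as the DELLA gene induced by jasmonate. It had 0.959, 1.51 and 4.46 FPKM at 0, 6 and 24 h. The 24 h level was 4.65-fold that at 0 h and 2.96-fold that at 6 h, changes of 1.48 and 1.12. Both were at 0.000358, the smallest q-value in the authors' deposited table. That value is a floor shared by 7475 of the 53530 tests with a q-value below 1, so it does not set RGL3 apart. The change of 0.35 at 6 h versus 0 h was not called (q = 0.157 in the authors' deposited table). At 0 h the gene lay just under 1 FPKM.

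RGL1 and RGL2 were not called in any comparison. RGL1 (AT1G66350, chr1:24748105-24750186), known mainly from seeds and flowers, had 3.19, 3.59 and 2.45 FPKM at 0, 6 and 24 h, and its q-value for 24 h versus 0 h in the authors' deposited table was 0.322. RGL2 (AT3G03450, chr3:819337-821652), known as the DELLA that holds back seed germination, had 2.04, 3.04 and 3.05 FPKM. In comparison with 0 h, the authors' deposited table gives q = 0.111 at 6 h and q = 0.109 at 24 h. RGL2 stood at 1.49-fold its 0 h level at both later times and was not called at either.

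The make-up of the DELLA transcripts was then compared. The 5 genes summed to 34.3, 36.8 and 51.5 FPKM at the 3 times. RGA1 made up 60.2%, 55.7% and 58.0% of that sum and GAI 21.7%, 22.2% and 22.7%. RGL3 made up 2.80%, 4.09% and 8.65%, while RGL1 made up 9.31%, 9.75% and 4.75%. In order of level the genes ran RGA1, GAI, RGL1, RGL2, RGL3 at 0 and 6 h and RGA1, GAI, RGL3, RGL2, RGL1 at 24 h. The ratio of RGL3 to RGL1 was 0.301, 0.420 and 1.82 at 0, 6 and 24 h. Without values per replicate it cannot be said which neighbours in these orders differ beyond their spread.

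The 3 GID1 genes encode soluble receptors with overlapping function. GID1A (AT3G05120, chr3:1430363-1432844) had 4.84, 6.84 and 9.44 FPKM at 0, 6 and 24 h, so each later value was above the one before. Its change at 24 h versus 0 h was 0.84, a 1.95-fold level (q = 0.000358 in the authors' deposited table). The authors' deposited table gives q = 0.108 at 6 h versus 0 h and q = 0.104 at 24 h versus 6 h, so neither step alone was called. GID1C (AT5G27320, chr5:9628990-9631291) had 3.39, 3.78 and 5.65 FPKM and changed by 0.60 at 24 h versus 0 h (q = 0.0198 in the authors' deposited table). GID1B (AT3G63010, chr3:23289243-23291486), the most abundant receptor transcript at every time, had 19.5, 19.3 and 15.8 FPKM. Its 24 h level was 0.81-fold that at 0 h, and the difference was not called (q = 0.247 in the authors' deposited table).

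Summed over the 3 receptors the level was 27.7, 29.9 and 30.9 FPKM at 0, 6 and 24 h. The share of GID1B in it was 70.3%, 64.5% and 51.1%, that of GID1A 17.5%, 22.9% and 30.6%, and that of GID1C 12.2%, 12.6% and 18.3%. The ratio of GID1B to GID1A was 4.03, 2.82 and 1.67 at the 3 times. The order GID1B, GID1A, GID1C was the same at all 3 times.

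**Figure D2:**
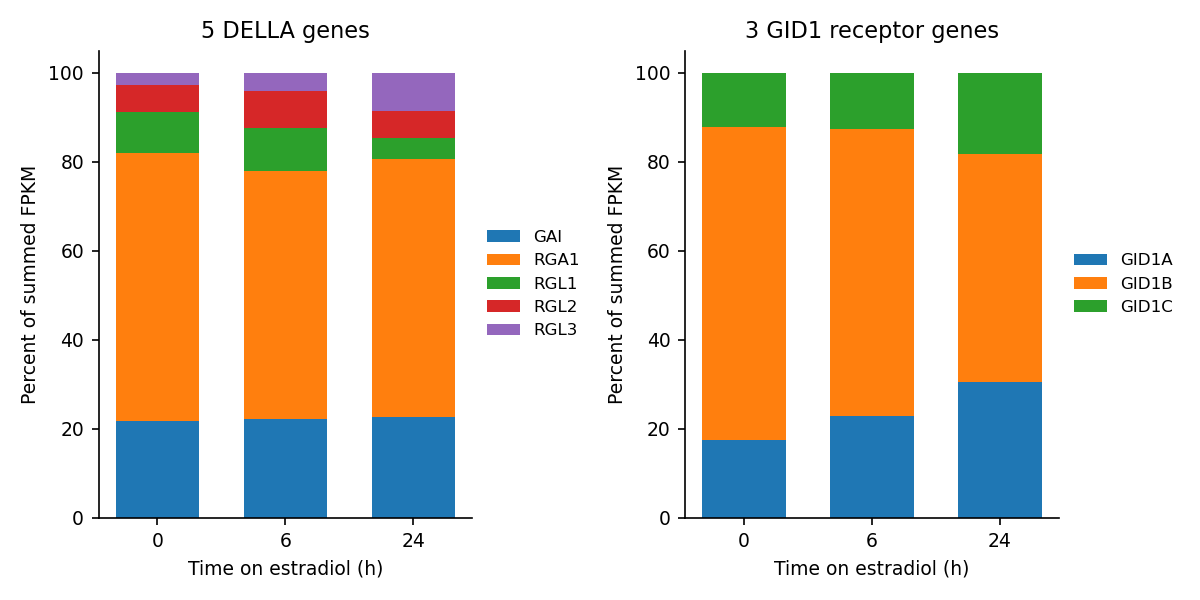
Percent of the summed FPKM (vertical) held by each of the 5 DELLA genes (left) and each of the 3 GID1 receptor genes (right) at 0, 6 and 24 h on estradiol; bars are stacked pooled values with no error. RGL3 takes 2.80%, 4.09% and 8.65% of the DELLA sum, and GID1B takes 70.3%, 64.5% and 51.1% of the receptor sum.

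GA3OX1 (AT1G15550, chr1:5344388-5346342) makes the final oxidation to bioactive gibberellin. It had 6.98, 5.27 and 13.2 FPKM at 0, 6 and 24 h. The 6 h value was the lowest and the 24 h value the highest. Its change was 0.83 at 24 h versus 0 h and 1.18 at 24 h versus 6 h, and both were at q = 0.000358 in the authors' deposited table. The change of -0.35 at 6 h versus 0 h was not called (q = 0.262 in the authors' deposited table). GA20OX1 (AT4G25420, chr4:12990851-12992585) supplies the substrate of GA3OX1. It had 0.288, 0.327 and 1.24 FPKM at 0, 6 and 24 h, so only the 24 h level exceeded 1 FPKM. In the authors' deposited table its log2 fold change was 2.11 for 24 h versus 0 h, with a q-value of 0.0280, and 1.92 for 24 h versus 6 h, with a q-value of 0.0210. On log2(FPKM + 1) the change at 24 h versus 0 h was 0.80. Without the filter on the mean, 7 of the 10 genes were thus called higher at 24 h versus 0 h, against 13.1% of all 33201 rows. That share is lowered by rows under the filter, which were rarely called. Higher calls numbered 4336 among all rows and 4251 among the 17841 rows passing the filter, where the share was 23.8%.

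The genomic setting of the 10 genes was read from the RefSeq annotation of TAIR10.1. None overlapped another annotated gene on either strand, and no stretch of 100 bp, the read length, in their longest transcripts recurred in a transcript of another gene. The 250 bases before the annotated start of 9 of these genes were searched on both strands for TGACG, the core motif of TGA-class bZIP factors, and for the G-box CACGTG, bound by bZIP and bHLH factors. TGACG was found in 1 of the 9 windows, that of RGL2, and in 18.6% of 27443 windows of protein-coding genes. CACGTG was found in none of the 9 and in 6.49% of all windows, so no match overlapped another. The windows of the gene with the largest change at 24 h versus 0 h, RGL3, of GA3OX1 and of the gene with a TGACG match are printed here, 5′ to 3′ toward the gene, in lower case with the match in capitals.
RGL3, minus strand, chr5:5766247-5766496: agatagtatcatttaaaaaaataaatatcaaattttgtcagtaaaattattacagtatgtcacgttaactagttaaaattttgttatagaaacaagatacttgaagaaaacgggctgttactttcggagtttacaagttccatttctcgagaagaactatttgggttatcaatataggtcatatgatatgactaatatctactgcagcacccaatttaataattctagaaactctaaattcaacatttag
GA3OX1, minus strand, chr1:5346343-5346592: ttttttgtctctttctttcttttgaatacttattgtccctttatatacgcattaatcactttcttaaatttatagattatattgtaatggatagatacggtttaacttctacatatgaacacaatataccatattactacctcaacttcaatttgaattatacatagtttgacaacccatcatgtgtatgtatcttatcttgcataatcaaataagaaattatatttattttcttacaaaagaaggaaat
RGL2, minus strand, chr3:821653-821902: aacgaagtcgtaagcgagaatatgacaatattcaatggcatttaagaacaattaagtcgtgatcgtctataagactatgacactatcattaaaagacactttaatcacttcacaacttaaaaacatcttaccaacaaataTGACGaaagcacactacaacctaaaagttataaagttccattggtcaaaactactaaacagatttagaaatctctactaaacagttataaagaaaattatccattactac
The match began 110 bases before the start in RGL2, which was not called. RGL3, GAI, RGA1, GID1A and GA3OX1, all called higher at 24 h versus 0 h, had no match in their windows.

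A further 51 genes of the pathway, listed by role, were examined beside these 10, and 26 of them reached a mean of 1 FPKM. Of the 26, 1 was called higher and 4 lower at 6 h versus 0 h, 9 higher and 5 lower at 24 h versus 0 h, and 7 higher and 3 lower at 24 h versus 6 h, as judged from the authors' deposited table. Among all tested genes 3.98% were called higher and 7.35% lower in the first comparison, 23.8% and 23.8% in the second, and 19.6% and 19.8% in the third. Called genes made up 53.8% of the 26 at 24 h versus 0 h, beside 47.7% of all tested genes, so the share was near the background. Their median changes were 0.053, 0.19 and 0.17 in the order of the comparisons given.

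Among early synthesis genes, 4 of 5 passed the filter, and 2 of these were called, both higher at 24 h versus 0 h. The share called higher there among all tested genes was 23.8%. GA3, which encodes ent-kaurene oxidase, had 6.79, 9.11 and 12.9 FPKM at 0, 6 and 24 h, and its 24 h change was 0.83 (q = 0.000666 in the authors' deposited table). KAO2, which encodes an ent-kaurenoic acid oxidase, had 1.61, 1.97 and 3.08 FPKM (q = 0.0129 in the authors' deposited table). GA2, for ent-kaurene synthase, and the other ent-kaurenoic acid oxidase gene CYP88A3 were not called. For GA2 at 24 h versus 0 h, p-values adjusted within the comparison gave 0.0422, below the limit of 0.05. GA1, for the first enzyme, stayed at or below 0.0481 FPKM.

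The oxidase genes of the late steps differed from one another. GA20OX2, a second gene for the step of GA20OX1, had 1.03, 1.39 and 7.61 FPKM at 0, 6 and 24 h. Its 24 h level was 7.38-fold that at 0 h, a change of 2.08 (q = 0.000358 in the authors' deposited table). GA20OX3 had 1.19, 1.71 and 1.35 FPKM and was not called in any comparison. GA20OX2 stood at 0.87-fold the level of GA20OX3 at 0 h and at 5.63-fold at 24 h. GA3OX2, a second gene for the step of GA3OX1, had 2.73, 0.722 and 2.92 FPKM. It fell by 1.11 at 6 h versus 0 h and rose by 1.19 at 24 h versus 6 h, with q-values of 0.00421 and 0.00292 in the authors' deposited table, and the 24 h level was 1.07-fold that at 0 h.

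Of 11 genes for inactivation, 3 passed the filter, and all 3 were called at 24 h versus 0 h, 1 higher and 2 lower. In that comparison 47.7% of all tested genes were called, so little can be read from 3 genes. GA2OX6, the 1 GA2OX oxidase gene that passed the filter, had 16.8, 22.5 and 7.86 FPKM at 0, 6 and 24 h, and it fell by 1.01 at 24 h versus 0 h. CYP714A1, a cytochrome P450 gene whose product inactivates gibberellins, had 21.4, 17.6 and 10.0 FPKM and fell by 1.02 on the log2 scale. For both the authors' deposited table gives q = 0.000358. GA2OX8, with a mean of 0.754 FPKM, did not pass the filter and had 1.45, 0.621 and 0.196 FPKM. CYP714A2, a relative of CYP714A1, went the other way with 1.27, 1.31 and 3.27 FPKM, a rise of 0.91 at 24 h versus 0 h (q = 0.00122 in the authors' deposited table). AT1G68570, known as the transporter NPF3.1 that carries gibberellin and abscisic acid, fell by 0.62 at 24 h versus 0 h, with 1.49 FPKM at 24 h against 2.82 FPKM at 0 h (q = 0.0308 in the authors' deposited table). It shares 11.7% of its 100 bp stretches with AT1G68568 on the opposite strand.

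**Figure D3:**
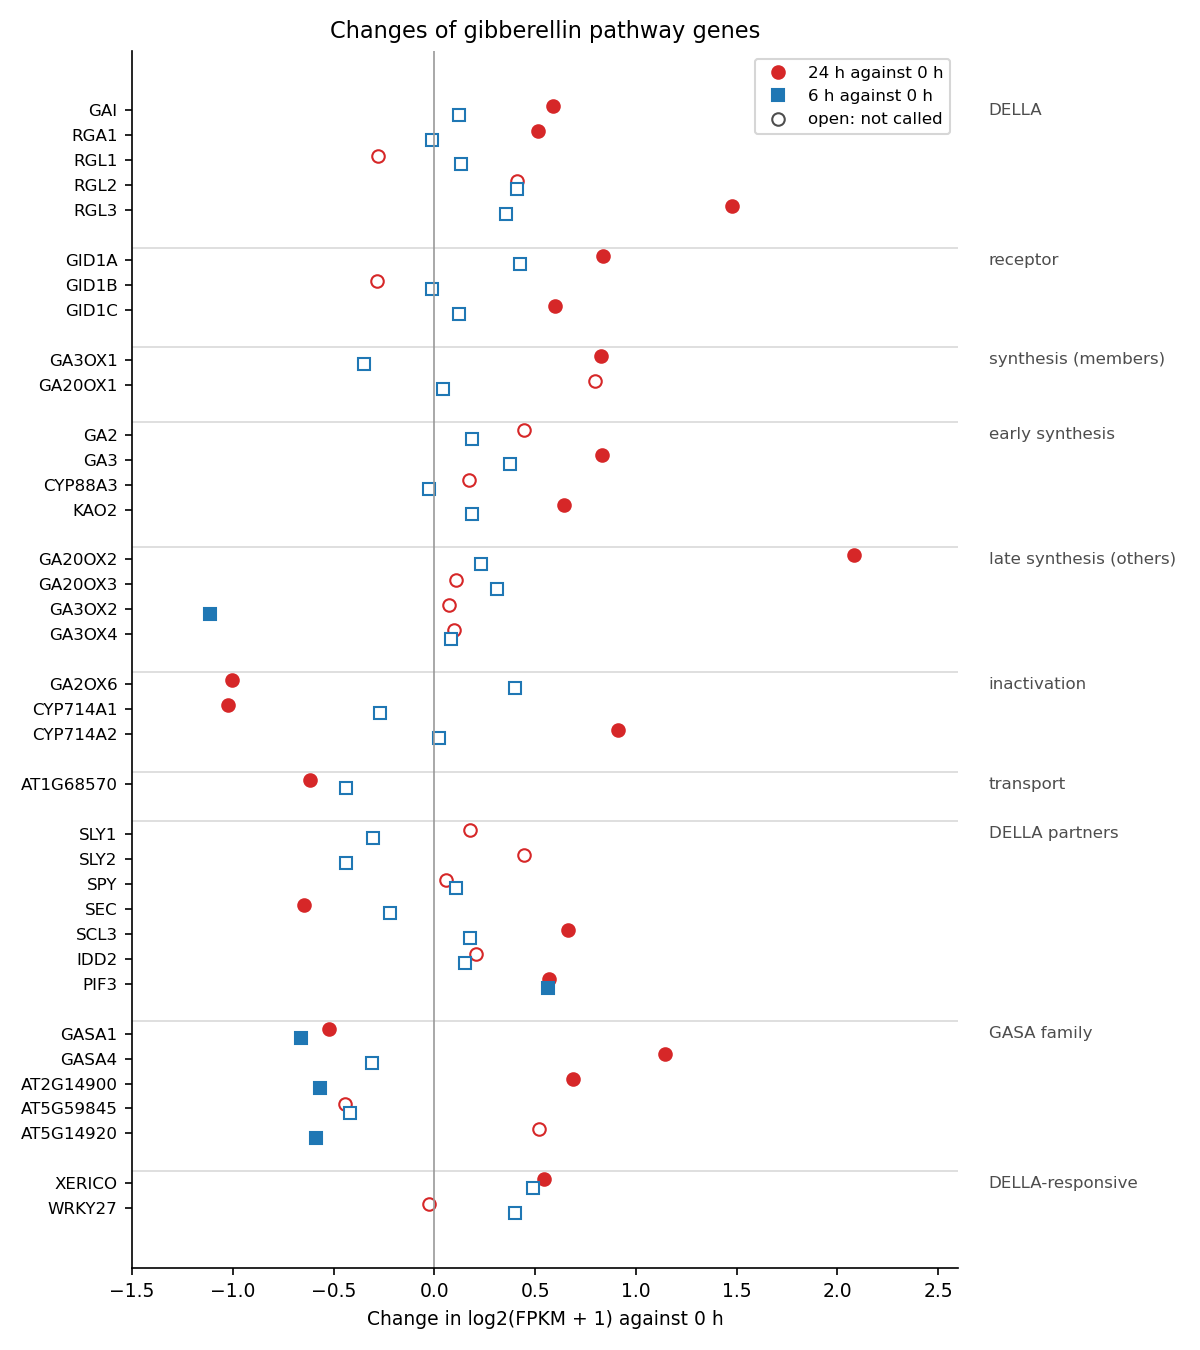
Change in log2(FPKM + 1) against 0 h (horizontal) for the 10 core genes and the 26 further pathway genes with a mean of at least 1 FPKM, grouped by role down the page; red circles are 24 h versus 0 h, blue squares 6 h versus 0 h, filled where called and open where not. GA20OX2 at 2.08 and RGL3 at 1.48 lie farthest to the right, and GA2OX6 at -1.01 and CYP714A1 at -1.02 farthest to the left at 24 h.

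Genes whose products act with DELLA proteins gave 2 higher and 1 lower call of 7 that passed the filter at 24 h versus 0 h. Over all tested genes 23.8% were called higher and 23.8% lower. SCL3, a GRAS protein that counteracts DELLA in the root endodermis, had 6.19, 7.13 and 10.4 FPKM at 0, 6 and 24 h, a 24 h change of 0.66 (q = 0.00564 in the authors' deposited table). PIF3, a bHLH factor held inactive by DELLA proteins, had 1.78, 3.11 and 3.12 FPKM and was the 1 pathway gene called higher at 6 h versus 0 h (q = 0.0265 in the authors' deposited table). That 6 h call was lost when p-values were adjusted within the comparison, which gave 0.0819. PIF3 was also called higher at 24 h versus 0 h, by 0.57 (q = 0.0262 in the authors' deposited table). This call was kept under the same adjustment, which gave 0.0178. SEC, an O-GlcNAc transferase that modifies RGA, had 20.3, 17.3 and 12.6 FPKM and fell by 0.65 at 24 h versus 0 h (q = 0.00198 in the authors' deposited table). With the trend of changes with transcript length removed, the change of SEC was -0.27, and at 24 h versus 6 h it was -0.070 in place of -0.43. SPY, the O-fucosyltransferase that acts on the same proteins, had 8.18, 8.90 and 8.57 FPKM. The F-box gene SLY1 had 23.7, 19.0 and 26.9 FPKM. Neither was called in any comparison.

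The GASA genes encode small secreted cysteine-rich peptides, several of them gibberellin-regulated. Of 13, 5 passed the filter. At 6 h versus 0 h, 3 fell, and at 24 h versus 0 h, 2 rose and 1 fell. GASA4 had 754, 607 and 1668 FPKM at 0, 6 and 24 h, a 24 h change of 1.14 (q = 0.000358 in the authors' deposited table). GASA1 had 1717, 1084 and 1196 FPKM and fell by 0.66 at 6 h and by 0.52 at 24 h versus 0 h, with q-values of 0.00524 and 0.0356 in the authors' deposited table. AT2G14900, with 137, 91.9 and 220 FPKM, and AT5G14920, with 6.83, 4.21 and 10.2 FPKM, fell at 6 h versus 0 h and rose at 24 h versus 6 h. The 6 h call of AT5G14920 was lost when p-values were adjusted within the comparison, which gave 0.122. At 24 h versus 0 h, where it was not called, the same adjustment gave 0.0478. AT2G14900 was also called higher at 24 h versus 0 h, by 0.69, but this became -0.047 when the trend with transcript length was removed. The same removal gave 0.53 for GASA4 and -1.25 for GASA1 at 24 h versus 0 h, and at 24 h versus 6 h it gave 0.79 in place of 1.46 for GASA4 and 0.61 in place of 1.25 for AT2G14900. The 6 h fall of GASA1 was -0.26 with quantile normalization. Among other DELLA-responsive genes, XERICO, a RING finger gene, had 18.3, 26.1 and 27.1 FPKM, called at 24 h versus 0 h (q = 0.0359 in the authors' deposited table), with a change of 0.54 that became 0.25 without the length trend, and WRKY27 had 14.0, 18.8 and 13.7 FPKM and was not called.

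Changes at 24 h went with transcript length across the table. Spearman's rho of the 24 h versus 0 h change with length was -0.39 over 17501 genes, a description across genes, which are not independent replicates. The DELLA transcripts are 2082 to 2434 bp long, where the median change of all genes of like length lay between -0.21 and -0.055, so RGL3, GAI and RGA1 rose against that trend. With the trend removed their changes were 1.65, 0.80 and 0.72. GID1A changed by 0.95 and GID1C by 0.58 after removal. GA3OX1, whose transcript of 1522 bp lies where the median change was 0.24, changed by 0.58. GID1B and RGL1 lay at -0.29 and -0.28, below the medians of -0.034 and -0.055 at their lengths.

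**Figure D4:**
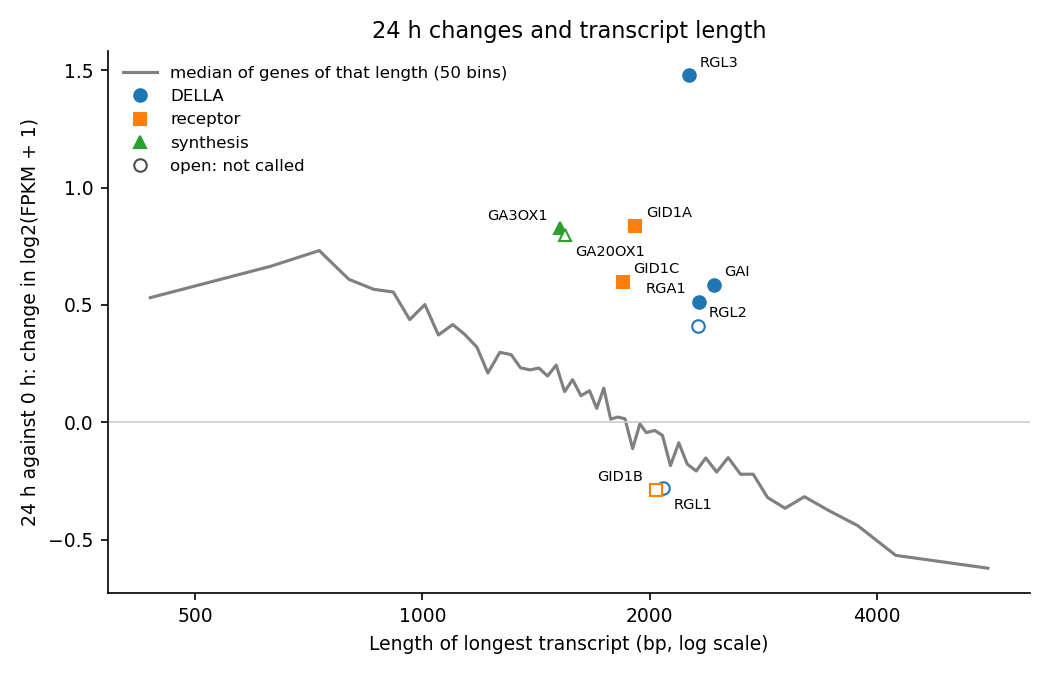
Change in log2(FPKM + 1) at 24 h versus 0 h (vertical) against the length of the longest transcript in bp (horizontal, log axis); the grey line joins the medians of 50 length bins of all 17501 genes, and symbols mark the 10 genes by role, filled where called. All genes but GID1B and RGL1 lie above the line, RGL3 farthest, at 1.48 against a bin median of -0.18.

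Genes with a time course like that of RGL3 were sought by the distance between pairs of changes, 6 h and 24 h each against 0 h, over the 3 times. The nearest were SNRK2.9, a kinase gene of the SnRK2 family, with 2.11, 2.97 and 7.74 FPKM at 0, 6 and 24 h and a distance of 0.014, AT5G50740, annotated as a heavy metal transport protein, with 14.5, 19.0 and 42.4 FPKM and a distance of 0.016, and AT5G52220, annotated as chromosome transmission fidelity-like, with 3.46, 4.64 and 11.3 FPKM and a distance of 0.018. The 24 h change of the last was not called (q = 0.229 in the authors' deposited table). In all, 73 of 17832 genes lay within 0.1 of RGL3, so these names single out no close partner.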

How the data were processed

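Per the submitters' processing notes, TopHat2 2.0.13, Cufflinks 2.1.1 and Cuffdiff were used with build TAIR10; their roles and the annotation are not given in the sources used here. Per the labels' protocols, polyadenylated RNA was made into directional libraries and read as 100 bp single-end reads. The deposited table gives 1 value per gene and time, combined by the authors over 3 replicates and taken as FPKM from those tools and from the values. It also gives the authors' log2 fold change and q-value for each of 3 comparisons, per the file headers. The header names no test for the q-values.

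Computed here, with Python 3.11.15, pandas 2.3.3 and NumPy 2.4.6, were differences of log2(FPKM + 1), counts of called genes, shares, and the median change in 50 bins of transcript length. The planned fits over replicates could not be made on pooled values. The q-values were read as 1 Benjamini-Hochberg adjustment over 53530 tests, the smallest standing for a p-value of 5e-05, and were readjusted within each comparison. This step and the length correction were run on simulated data made with the same assumptions. Such data cannot show whether the authors adjusted in that way or whether true changes go with length. Transcripts, names, coordinates and sequences come from RefSeq TAIR10.1; 1 upstream window is not reported here. The genes, lists and calling rule were chosen with earlier results of these data known. Named are the 10 core genes, each pathway gene called in any comparison, some uncalled relatives for contrast, chosen after their values were seen, and the 3 genes nearest to RGL3.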

Additional observations from a re-analysis of the deposited data

How the results depend on the processing

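No paired analysis was possible because replicates were pooled before deposit, which also means that none was left out in turn. Of the 10 called changes of the core genes, none changed direction under either scaling or removal of the length trend. At 24 h versus 0 h, median-of-ratios scaling moved core genes by at most 0.073 and quantile normalization by at most 0.175. Both shifts are smaller than every called change there. A pseudocount of 0.1 and the authors' log2 fold change could not reverse a direction, as they compare the same values. The choice that moved the counts most was a minimum change.

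The share of all genes called under each altered rule below is not given here, so these counts cannot be set against a background. For the core genes, a q-value limit of 0.01 left 3 calls (RGL3, GID1A and GA3OX1) at 24 h versus 0 h and 2 at 24 h versus 6 h. A mean of at least 5 FPKM left 4 and 3, without RGL3 and, at 24 h versus 0 h, GID1C. A minimum change of 1 in log2(FPKM + 1), or of 1 in the authors' log2 fold change (added after the data were seen), left 1 and 2. At 6 h versus 0 h the count was 0 under every alternative run. For the 26 other pathway genes the limit of 0.01 left 2 calls at 6 h and 9 at 24 h versus 0 h, a minimum change of 1 left 1 and 4, and 6 at 24 h versus 6 h, and the authors' log2 fold change left 1 and 5. A mean of at least 5 left 3 and 9. Adjustment within the comparison left 3 at 6 h but raised the counts to 16 at 24 h versus 0 h and to 11 at 24 h versus 6 h.

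Among called changes of the other pathway genes, 1 changed direction, that of AT2G14900 at 24 h versus 0 h without the length trend. For the core genes, reversed directions concerned uncalled changes near 0. RGA1 at 6 h versus 0 h became 0.011 with quantile normalization and 0.0068 without the length trend, and GID1B became 0.011 with quantile normalization. RGL2 at 24 h versus 6 h became -0.042 with median-of-ratios scaling and -0.075 with quantile normalization. Among list medians, late synthesis at 24 h versus 0 h became -0.074 and -0.066 with quantile normalization and without the length trend, inactivation at 6 h versus 0 h -0.068 and -0.00043, DELLA partners at 24 h versus 6 h -0.036 with quantile normalization, and GASA genes at 24 h versus 0 h -0.047 without the length trend. The causes were not tested. The read depth is unknown, so its limit on the low genes GA20OX1, RGL3 and GA3OX2 is not given.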
